A study of Mus musculus with 4 samples.

Results

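MHC class I heavy chains are the polymorphic subunits of the molecules that display peptides from inside a cell to T cells. The members described here are the spots whose only gene symbol in the probe annotation is H2-K1, H2-D1, H2-Q1 or H2-Q7, which gave 4 genes, 7 oligonucleotides and 14 spots out of 11138 genes, 12131 oligonucleotides and 24344 spots with 1 gene symbol. The genes were chosen by their measured 4 h ratios, having passed the 2-fold rule explained below, so their 4 h values are a description. H2-K1, H2-D1 and H2-Q1 had 2 oligonucleotides each and H2-Q7 had 1, and every oligonucleotide was spotted in duplicate. Class I genes are close relatives, and a long oligonucleotide may bind the transcripts of several of them, so each value belongs to the oligonucleotide first and to the gene only by its annotation. The gene table of RefSeq shows how entangled the names are, since it lists H2-D1 as a synonym of H2-K1 and of H2-Q1, and H2-K1 as a synonym of H2-D1.

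The groups were SVEC cells, a mouse endothelial line, exposed in culture to lipopolysaccharide (LPS), the outer membrane component of Gram-negative bacteria, for 24 h or for 4 h, each set against control cells on the same arrays. Each time had 2 arrays, with LPS in Cy5 and control in Cy3 on the first and, by their descriptions, the dyes exchanged on the second. The channel fields put LPS in channel 2 on all 4 arrays, the dye reversals included, so the labels do not settle whether the reversed columns had already been turned. The labels give the dose as 50 ng/ml for 3 of the 4 arrays, and they describe the RNA as amplified, for LPS and control alike. Nothing in the labels names separate cultures, a passage or the MHC haplotype of the line, so the arrays of each time count as a single RNA pair and every SD below is a technical spread over 2 arrays. No test is possible with 1 RNA pair per time.

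All values are log2 ratios of LPS over control, centred on the median spot of the array, with the sign of the reversed arrays turned. This direction is likely and not stated: the dyes in the descriptions give it if every deposited ratio is Cy5 over Cy3, and all signs would be inverted if it is Cy3 over Cy5. If instead every column already is channel 2 over channel 1, the reversed arrays should not be turned. The member means would then be -0.05 for H2-K1, -0.26 for H2-D1, -0.01 for H2-Q1 and -0.37 for H2-Q7 at 24 h, and 1.69, -0.60, 0.44 and 0.48 in the same sequence at 4 h, with no member past the rule given next. Before turning, the arrays of a time correlated over all spots at -0.042 at 24 h and at -0.23 at 4 h, so the 24 h values hardly bear on the choice. A gene met the 2-fold rule when its mean over both arrays was at least 1 on the log2 scale in size and neither array fell short of 1.5-fold in that direction. By this rule 1.68% of all genes were higher and 0.799% lower at 24 h, and 8.74% were higher and 5.77% lower at 4 h. With the reversed array left as deposited, 1.7% of genes met it at 24 h and 1.83% at 4 h. Across genes, which are not independent replicates, the turned arrays correlated at 0.10 at 24 h and 0.48 at 4 h. The table used here holds no intensities, so neither the level of a transcript nor the endothelial identity of the cells could be checked. Of 12 measured endothelial markers, none met the rule at 24 h and only Cdh5, at -3.47 ± 2.12 (SD), did at 4 h. Of 13 leukocyte markers, only Coro1a met the rule at 24 h, at 1.05, and none did at 4 h. Of 10 mural and fibroblast markers, 1 was higher at 24 h, Pdgfra at 1.14 ± 0.54, and 5 were higher at 4 h. The 5 were Col3a1 at 3.05 ± 2.25, Pdgfra at 1.92 ± 1.15, Dcn at 1.70 ± 0.19, Acta2 at 1.48 ± 0.67 and Col1a1 at 1.20 ± 0.17. Lum was lower at 4 h, at -1.40 ± 0.58. The median of that list was 0.12 at 24 h and 0.62 at 4 h, and its part in the class I values was not tested. In RNA of a whole culture, fewer cells of a type and less RNA per cell cannot be told apart.

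A class I heavy chain folds around beta-2 microglobulin, the product of B2m, and a short peptide that proteasomes cut and the Tap1-Tap2 transporter carries into the endoplasmic reticulum. H2-K1 and H2-D1 encode the classical chains, which present peptides to CD8+ T cells on nearly all nucleated cells, while H2-Q7 encodes a form of the non-classical Qa-2 antigen and H2-Q1 lies in the same Qa region. Interferons and the NF-kB pathway are known to raise class I transcription through short elements upstream of the gene: a kB site, an interferon response element bound by IRF factors, a CRE-like site and a CCAAT box. Endothelial cells carry class I constitutively and raise it under inflammatory stimuli.

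The upstream sequences of the members show this layout and how alike the genes are. RefSeq upstream windows of GRCm38.p6 matched 3 of the 4 members by symbol; H2-Q1 had no entry. Each line gives the 250 bases before the annotated start, 5′ to 3′, in lower case, with matches to GGGNNTTCC (kB), AANNGAAA (the core of IRF sites), TGACG (CRE-like) and CCAAT in capitals, searched on both strands. The windows are chr17:34000334-34000583 on the minus strand for H2-K1, chr17:35262844-35263093 on the plus strand for H2-D1 and chr17:35438905-35439154 on the plus strand for H2-Q7. H2-K1 has 2 annotated starts, of which the one further downstream was used.
H2-K1: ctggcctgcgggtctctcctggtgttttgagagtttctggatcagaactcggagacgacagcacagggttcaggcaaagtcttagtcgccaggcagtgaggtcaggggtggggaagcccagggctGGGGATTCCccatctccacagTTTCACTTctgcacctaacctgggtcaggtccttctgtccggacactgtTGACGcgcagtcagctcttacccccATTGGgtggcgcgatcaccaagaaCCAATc
H2-D1: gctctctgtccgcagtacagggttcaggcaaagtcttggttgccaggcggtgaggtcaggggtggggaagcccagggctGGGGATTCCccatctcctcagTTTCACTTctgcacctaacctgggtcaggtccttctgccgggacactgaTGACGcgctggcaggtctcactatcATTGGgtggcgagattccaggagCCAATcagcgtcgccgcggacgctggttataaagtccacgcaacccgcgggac
H2-Q7: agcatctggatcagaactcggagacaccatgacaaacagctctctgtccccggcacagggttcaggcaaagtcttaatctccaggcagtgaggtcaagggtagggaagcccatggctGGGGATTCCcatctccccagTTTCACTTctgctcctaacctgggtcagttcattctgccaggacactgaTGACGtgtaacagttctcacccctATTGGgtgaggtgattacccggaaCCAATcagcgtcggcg
The elements stood in the same order in the 3 windows, with 1 match each to the kB, IRF and CRE-like letters and 2 CCAAT matches.

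The IRF match began 21, 21 and 20 bases after the kB match in H2-K1, H2-D1 and H2-Q7, and the CRE-like match began 49 bases after the IRF match in each. Over their aligned bases the windows were 87.2% identical between H2-K1 and H2-D1, 88.0% between H2-K1 and H2-Q7, and 85.8% between H2-D1 and H2-Q7. Of all 32851 RefSeq windows of the same length, 4.98% held the kB letters, 21.3% the IRF core, 17.8% the CRE-like letters and 33.8% a CCAAT match. Windows with all 4 kinds made up 0.100% of these, or 33, and held the 3 member genes, H2-Q4, H2-M2 and the class II gene H2-Aa among others. The letters were taken from known class I elements after the member sequences had been read, so this count describes the windows and tests nothing. A match is no proof of a bound site, and the RefSeq sequence is that of C57BL/6J, which need not be the haplotype of SVEC cells.

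**Figure D1:**
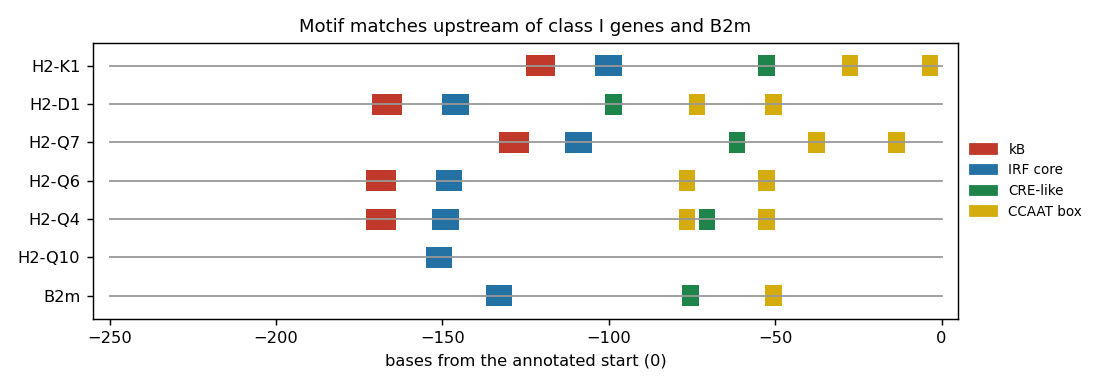
Matches to the kB, IRF core, CRE-like and CCAAT letters in the 250 bases upstream of the annotated start (x axis, bases from the start) for H2-K1, H2-D1 and H2-Q7, for 3 further Qa genes and for B2m. The 3 members carry the elements in the same order at similar spacing, shifted along the axis by where each start is annotated.

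Among the other class I genes with a window, H2-Q6 held the kB letters, the IRF core and 2 CCAAT matches but no TGACG. H2-Q4 held all 4 kinds, but not in the order of the members. Its TGACG began 73 bases before the start, after its first CCAAT match at 79 bases. In H2-M2 the TGACG began 236 bases before the start, upstream of the kB matches at 179 and 165 bases. H2-Q10, a secreted class I chain made by the liver, held the IRF core alone of the 4. B2m held the IRF core, TGACG and CCAAT, as the map of motif matches shows. That the letters are not in a window says nothing about a factor.

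After 24 h of LPS no member met the 2-fold rule, and after 4 h all 4 genes did, where the rule's own background was 1.68% and 8.74% of all genes higher. Nothing is read from the 4 h count, since that contrast chose the genes. The median of the 4 genes was 0.11 at 24 h, beside 0.02 over all genes, and 3.26 at 4 h, beside 0.00 over all genes. At the level of oligonucleotides 0 of 7 met the rule at 24 h and 5 of 7 at 4 h, where 1.80% and 8.85% of all oligonucleotides did so upward.

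H2-K1 was near 0 at 24 h and among the high genes at 4 h, with a wide gap between the 4 h arrays. At 24 h its gene values were 0.09 for LPS in Cy5 and 0.19 for the dye reversal, a mean of 0.14 ± 0.07 (SD, 2 arrays) or 1.10-fold. At 4 h they were 5.27 and 1.89, a mean of 3.58 ± 2.39 or 12.0-fold. Both arrays lay above 2-fold at 4 h and far from each other, the array with LPS in Cy5 being the higher. The oligonucleotide designed to U47328 gave 0.83 and 0.34 at 24 h and 5.36 and 2.07 at 4 h. The one designed to M69070 gave -0.65 and 0.04 at 24 h and 5.19 and 1.72 at 4 h. Both showed the same split between arrays at 4 h and opposite signs of the mean at 24 h, where they stood 0.89 apart.

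H2-D1, the second classical chain, had 1 oligonucleotide that repeated across the dyes and 1 that did not. For the gene the 24 h values were 0.10 for LPS in Cy5 and 0.62 for the dye reversal, a mean of 0.36 ± 0.36 or 1.28-fold. At 4 h they were 2.33 and 3.54, a mean of 2.94 ± 0.85 or 7.66-fold. The oligonucleotide designed to X65748 read 0.12 and 0.75 at 24 h, against 4.39 and 3.88 at 4 h, where its mean of 4.14 ± 0.36 was the highest of the 7 and its SD the smallest of the 5 past the rule. The oligonucleotide designed to U47326 read 0.08 and 0.48 at 24 h, against 0.27 and 3.20 at 4 h. Its 4 h mean of 1.74 ± 2.07 came from the reversed array, and it did not meet the rule. Its duplicate spots stood at -0.24 and 0.78 with LPS in Cy5 and at 3.49 and 2.92 on the reversed array, so the duplicates of the first array were 1.02 apart, on both sides of 0, and those of the reversed array 0.57 apart, all above the first array's.

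H2-Q1 was carried by 1 of its oligonucleotides. The one designed to NM_010390 gave 0.04 and 0.36 at 24 h, and 4.68 and 2.76 at 4 h, a 4 h mean of 3.72 ± 1.35 or 13.2-fold. The one designed to U96752 gave 0.09 and -0.19 at 24 h, and -0.19 and -0.02 at 4 h, a 4 h mean of -0.10 ± 0.12. The 2 oligonucleotides of this gene therefore differed by 3.82 on the log2 scale at 4 h and by 0.25 at 24 h. Averaged over both, the gene stood at 0.08 ± 0.02 at 24 h and 1.81 ± 0.62 at 4 h, and the 4 h mean describes neither oligonucleotide.

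H2-Q7, measured by 1 oligonucleotide, had 24 h values of -0.60 for LPS in Cy5 and 0.14 for the dye reversal, a mean of -0.23 ± 0.52 or 0.852-fold. At 4 h the arrays read 4.10 and 3.14, a mean of 3.62 ± 0.69 or 12.3-fold. Its duplicate spots at 4 h were 3.92 and 4.29 on the first array and 3.09 and 3.18 on the reversed one. It was the only member with a gene mean below 0 at 24 h.

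**Figure D2:**
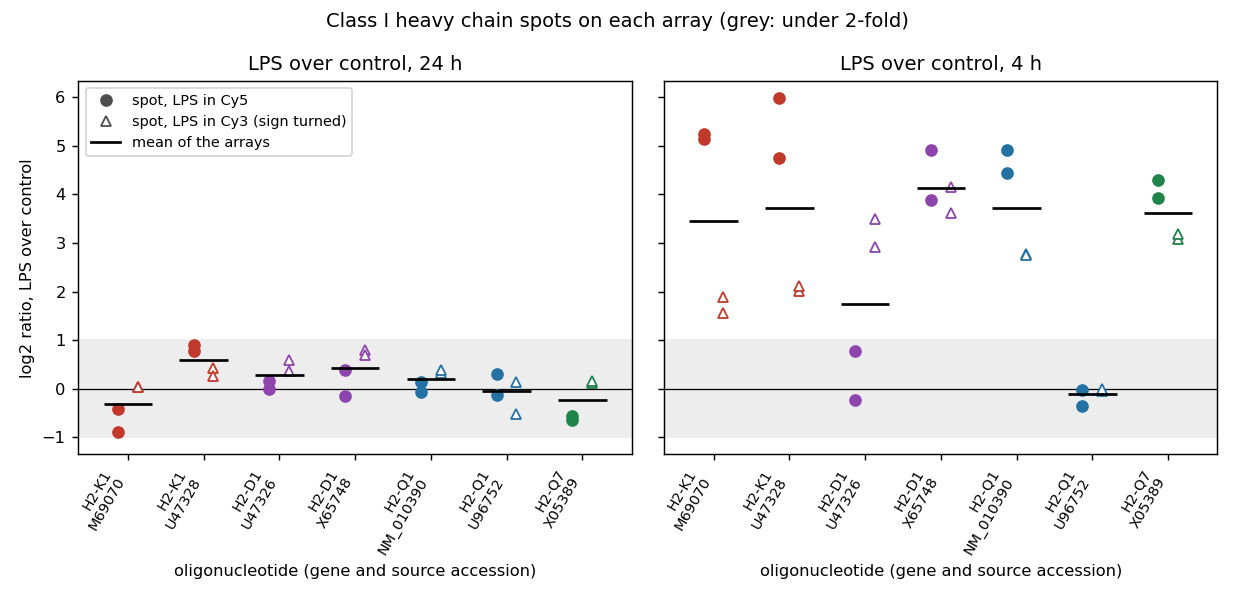
Log2 ratio of LPS over control (y axis) for each of the 14 spots of the 7 member oligonucleotides (x axis, gene and source accession) at 24 h and at 4 h, with filled circles for LPS in Cy5, open triangles for LPS in Cy3 and bars for the mean of the arrays. At 24 h all spots lie between -0.89 and 0.90, inside the grey 2-fold band, while at 4 h 5 of 7 oligonucleotides have every spot above it.

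Ordered by the 24 h mean the members ran H2-D1, H2-K1, H2-Q1, H2-Q7, and each neighbour differed from the next by less than the larger of their SDs, by 0.22, 0.07 and 0.31. Ordered by the 4 h mean they ran H2-Q7, H2-K1, H2-D1, H2-Q1. The first 3 stood 0.04 and 0.65 apart, within their SDs of 0.69, 2.39 and 0.85. H2-Q1 lay 1.13 below H2-D1, more than the SD of either, and its own oligonucleotides were 3.82 apart.

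Duplicate spots mostly agreed more closely than the arrays did, in 6 of 7 oligonucleotides at 24 h and 5 of 7 at 4 h. The gap between duplicate spots of a member oligonucleotide had a median of 0.19 (LPS in Cy5) and 0.094 (dye reversal) at 24 h, and 0.46 and 0.10 at 4 h. Over all genes' duplicate pairs the medians were 0.25, 0.26, 0.19 and 0.27 in the same sequence of arrays. Of the 5 oligonucleotides past the rule at 4 h, 5 had the larger ratio on the array with LPS in Cy5, by up to 3.47 for H2-K1, while U47326 of H2-D1 went the other way by -2.93. A dye effect cancels in the mean of a pair but enters its SD.

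**Figure D3:**
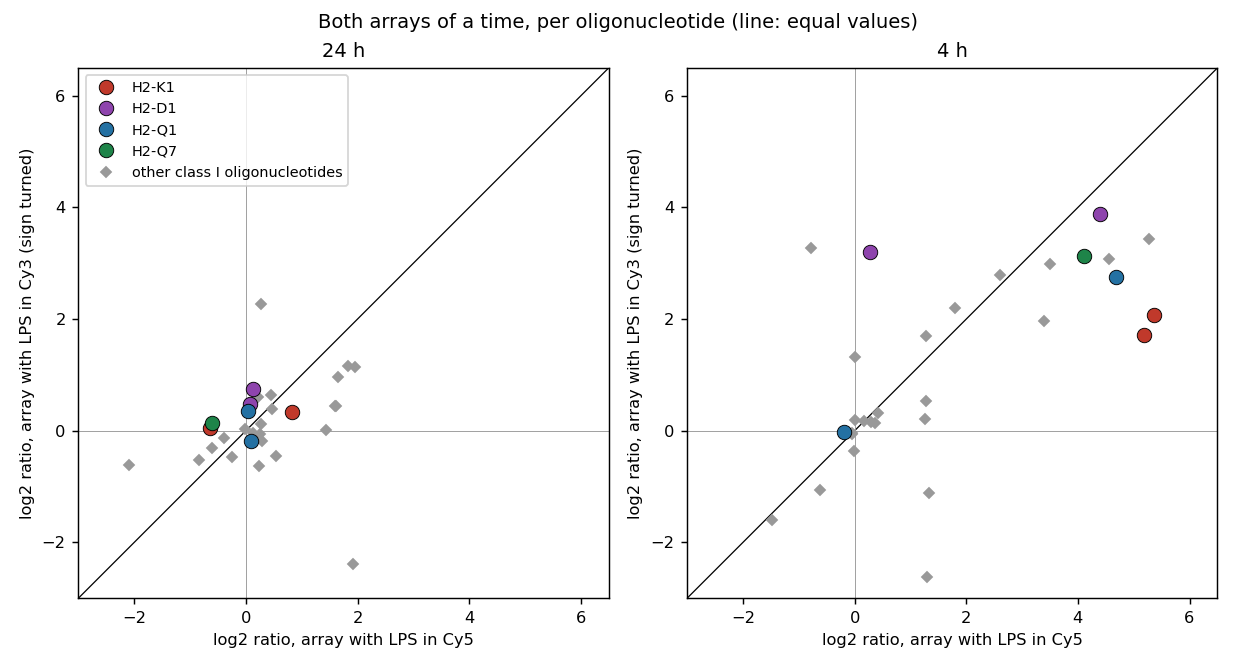
Log2 ratio of LPS over control on the array with LPS in Cy5 (x axis) against the reversed array with its sign turned (y axis), per oligonucleotide, at 24 h and at 4 h, with the members in colour and the other class I oligonucleotides in grey. At 4 h the H2-K1 points lie far below the line of equal values (5.36 against 2.07) and 1 H2-D1 point far above it (0.27 against 3.20), and the H2-Q1 points lie apart.

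Between the times the ratio of every member was lower at 24 h than at 4 h. The difference, 24 h minus 4 h, was -3.85 for H2-Q7, -3.44 for H2-K1, -2.58 for H2-D1 and -1.73 for H2-Q1. In all 4 genes both 24 h arrays lay below both 4 h arrays by this rule (a difference of at least 1 with no overlap), which 9.99% of all genes met in this direction and 8.23% in the other. Since the 4 h values chose the genes, a lower value at the other time is partly fixed by the choice, and nothing is read from the count. At the level of oligonucleotides 5 of 7 met it, the exceptions being U47326 of H2-D1, with a difference of -1.46, and U96752 of H2-Q1, with 0.05. Whether both times shared a control culture is not stated in the labels.

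Other class I heavy chain genes split into a few that resembled the members at 4 h and many that did not. Of 15 measured genes of a list of further class I chains, 3 were higher and 1 lower by the rule at 24 h, and 4 were higher and 1 lower at 4 h, with medians of 0.10 at 24 h and 0.25 at 4 h. H2-T9, a T-region gene, stood at 1.55 ± 0.57 at 24 h, with arrays at 1.95 and 1.14, and at 3.81 ± 1.04 at 4 h, with arrays at 4.55 and 3.08. H2-T22, whose product is a ligand of gamma-delta T cell receptors, stood at 1.08 ± 0.34 at 24 h and 3.25 ± 0.72 at 4 h, and each of its 3 oligonucleotides met the rule at 4 h, at 4.36, 2.70 and 2.68. At 24 h the oligonucleotide highest at 4 h (M35243) read 0.42 and missed the rule, as the members did, and the other two met it, NM_010397 at 1.31 and M35245 with arrays at 1.83 and 1.17. As genes, H2-T9 and H2-T22 met the rule at both times, as 0.413% of all genes did, whereas no member did. Whether this difference between the genes exceeds that between cultures could not be tested with 1 RNA pair per time.

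Of 4 class I genes outside the list, named after their values were seen, H2-T17 met the rule at both times, at 1.13 ± 0.34 at 24 h and 2.52 ± 0.58 at 4 h. H2-D4 (0.87 at 24 h and 0.44 at 4 h), H2-K2 (-0.08 and -0.24) and H2-T18 (-0.93 and 0.01) met it at neither. Whether these oligonucleotides separate the T-region transcripts was not tested. In the Qa region, H2-Q2 stood at 0.73 at 24 h and 1.49 ± 0.30 at 4 h. H2-Q8, one of the Qa-2 genes, stood at 0.20 and 1.37 ± 0.84, with 4 oligonucleotides whose 4 h means ran from -0.66 to 3.25. H2-Q5 met the rule at 24 h, at 1.16 ± 0.29 against 0.28 at 4 h, but no single oligonucleotide of it met the rule. H2-Q10 was lower at 24 h, at -1.35 ± 1.05, and its 4 h arrays read -0.78 and 3.28.

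H2-M1, of a family known from vomeronasal neurons, was lower at 4 h, at -1.54 ± 0.09, and lay at -0.46 at 24 h. The other 8 listed genes with values did not meet the rule at either time. Among them H2-M3, which presents formylated peptides, stood at -0.20 ± 0.60 at 24 h and -0.84 ± 0.30 at 4 h. H2-T23, which encodes Qa-1, stood at -0.30 ± 1.59 at 24 h, with arrays at 0.83 and -1.42, and at 0.51 ± 0.43 at 4 h. An oligonucleotide annotated to 4 genes at once, H2-D1 among them, was left out by the rule for members and read -0.81 and -0.40 at 24 h and -0.18 and 0.07 at 4 h.

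**Figure D4:**
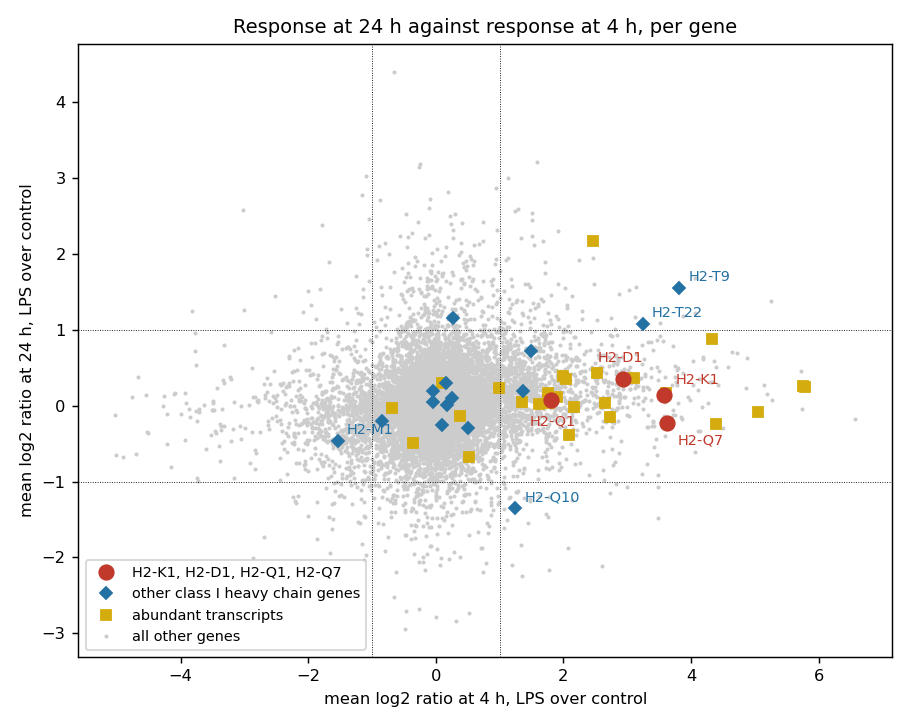
Mean log2 ratio of LPS over control at 24 h (y axis) against that at 4 h (x axis) for all 11138 genes, with the 4 members in red, other class I genes in blue and a list of abundant transcripts in yellow; dotted lines mark 2-fold. The members lie between -0.23 and 0.36 on the 24 h axis and between 1.81 and 3.62 on the 4 h axis, among the abundant transcripts, while H2-T9 and H2-T22 are above 2-fold on both axes.

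The partners of the heavy chains were measured in small lists. Over all genes 1.68% were higher by the rule at 24 h and 8.74% at 4 h, and nothing is read from the counts below. B2m, the light chain without which class I does not reach the surface, had 24 h values of -0.18 and -1.29, a mean of -0.74 ± 0.78, and 4 h values of -0.06 and 2.48, a mean of 1.21 ± 1.79. Its 4 h arrays therefore differed as those of U47326 did, and it missed the rule. Of 8 measured genes of the light chain and peptide loading list, none met the rule at 24 h and only Canx, the chaperone calnexin that holds new heavy chains, did at 4 h, at 1.05 ± 0.48 (1.01 ± 0.67 at 24 h). Canx lost that call with arrays scaled to one spread (0.98) and after quantile normalization (0.82), which gave it one at 24 h (1.19). The peptide transporter genes lay at 0.26 at 24 h and -0.27 ± 1.15 at 4 h for Tap1, and at -0.05 and 0.26 for Tap2. Tapbp, the tapasin that bridges transporter and heavy chain, read 0.31 at 24 h and 0.66 ± 0.19 at 4 h.

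Genes of the immunoproteasome, which cuts peptides for class I, and the proteasome activator gene Psme1 met the rule in 0 of 4 at either time. The median of this list was 0.35 at 24 h and 0.12 at 4 h. Over all genes 1.68% were higher by the rule at 24 h and 8.74% at 4 h, so nothing is read from counts in lists this small. Psmb8 read 0.43 ± 0.07 at 24 h and -0.03 at 4 h, Psmb9 read 0.26 and 0.19, and Psmb10 read 0.43 and 0.05. Among 12 measured regulators of class I genes, Stat2, which carries type I interferon signals to the nucleus, was the only 1 past the rule, at 1.41 ± 0.17 at 24 h and 1.14 ± 0.66 at 4 h. Its 4 h call was lost with arrays scaled to one spread (1.07) and after quantile normalization (0.87). Irf1, a factor of interferon response elements, lay at 0.05 ± 0.03 at 24 h and 0.30 ± 0.14 at 4 h. Nlrc5 had no value in the table used here.

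The counts that follow stand beside those over all genes. By the rule 1.68% of all genes were higher and 0.799% lower at 24 h, and 8.74% higher and 5.77% lower at 4 h. Of 9 measured molecules with a class I fold, 0 met the rule at 24 h and 1 at 4 h. This was Procr, the endothelial protein C receptor, at 0.53 ± 0.05 at 24 h and 2.21 ± 0.52 at 4 h. The class II list, whose molecules present peptides taken up from outside and mark professional presenting cells, had 0 of 10 past the rule at both times, with medians of 0.08 at 24 h and -0.28 at 4 h. A list of neighbours in the MHC held Tap1, Tap2, Tapbp, Psmb8 and Psmb9 again, beside genes that serve other functions. It gave 1 higher of 26 at 24 h, and 4 higher and 1 lower at 4 h. These were Ier3, at 1.40 ± 0.30 at 24 h and 1.27 ± 0.54 at 4 h, and the chromatin reader gene Brd2 (-0.59 ± 1.29 and 2.62 ± 0.19). The others were Rps18 of the small ribosomal subunit (0.02 ± 0.55 and 2.69 ± 1.41), the RNA helicase gene Ddx39b (0.05 ± 0.72 and 1.35 ± 0.53) and, lower at 4 h, the complement gene C4b (-0.56 ± 0.48 and -1.27 ± 0.29). Quantile normalization took the 4 h call from Ier3 (0.97).

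**Figure D5:**
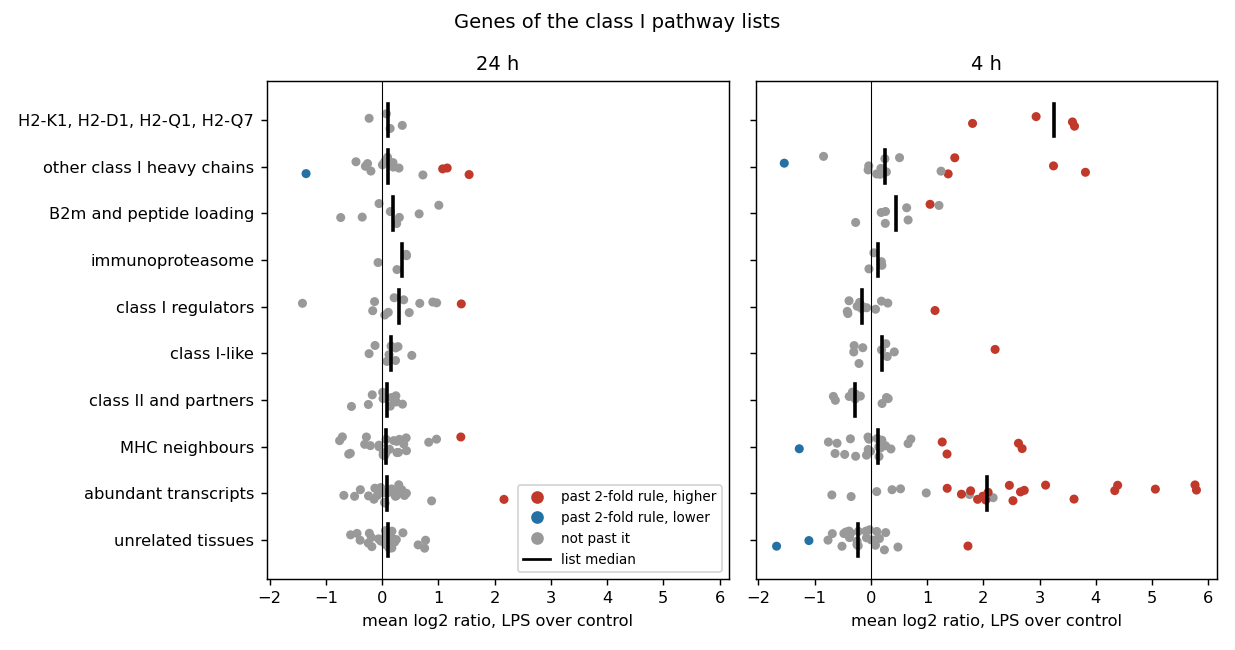
Mean log2 ratio of LPS over control (x axis) at 24 h and at 4 h for each measured gene of the class I pathway lists, the MHC neighbours, abundant transcripts and transcripts of unrelated tissues (rows), with red and blue points for genes past the 2-fold rule upward and downward and black bars for list medians. At 4 h the member row has a median of 3.26 and the abundant transcripts 2.06, while class II lies at -0.28.

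Abundant transcripts of other functions were also higher at 4 h. Of 26 measured genes of a list of such transcripts, 1 was higher at 24 h and 18 at 4 h, with 0 lower at either time. Gapdh, a glycolytic enzyme gene often used as a loading control, stood at -0.24 at 24 h and 4.39 at 4 h, with 4 h arrays at 5.10 and 3.68. Ppia, which encodes cyclophilin A, stood at 0.25 at 24 h and 5.76 ± 1.32 at 4 h, above every member. The median of that list was 0.08 at 24 h and 2.06 at 4 h, and by array at 4 h it was 2.63 (LPS in Cy5) and 1.46 (dye reversal). For transcripts of unrelated tissues the median was 0.11 at 24 h, against -0.22 at 4 h. The part of this shift in the class I values was not tested, and with no intensities a trend with abundance could not be fitted.

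With centring on that list in place of the median spot, the median of all genes moved to -0.08 at 24 h and to -2.05 at 4 h, and the members kept different places. At 4 h H2-Q7 then stood at 1.57, with arrays at 1.47 and 1.68, and was the only member still past the rule. H2-K1 stood at 1.54, with arrays at 2.64 and 0.43, H2-D1 at 0.89, with arrays at -0.30 and 2.08, and H2-Q1 turned in sign to -0.24. On this scale H2-T9, at 1.77, and H2-T22, at 1.20, met the rule upward at 4 h. H2-Q2, H2-Q8, H2-Q10, H2-Q5, B2m, Canx, Tap2, Tapbp, Psmb9, Psmb10, Irf1, Stat2, Ddx39b and Ier3 turned in sign there. H2-Q5, Tap2, Tapbp, Psmb9, Psmb10 and Irf1 were then past the rule downward, as were Tap1 (-2.32) and Psmb8 (-2.08), beside the all-gene median of -2.05. H2-T17 (0.48), Procr (0.16), Rps18 (0.64) and Brd2 (0.58) kept their sign there and lost their 4 h call. No fibroblast marker was past the rule upward at 4 h on this scale, and Pdgfra, Dcn, Acta2 and Col1a1 turned in sign at that time. Pdgfra kept its 24 h call, at 1.04. At 24 h H2-Q1 turned, at -0.03, as did Irf1, Rps18 and Ddx39b, and H2-T22 fell just short of the rule at 0.97. The split of all genes was 139 higher and 159 lower at 24 h, in place of 187 and 89, and 87 higher and 9271 lower at 4 h, in place of 973 and 643.

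The genes most like each member were found by the smallest Euclidean distance over the 4 array values, among all 11138 genes. For H2-K1 they were Mgmt (distance 0.828), Ctsl (0.863) and Snap91 (0.864). For H2-D1 they were Atp6ap2 (0.509), Isoc2b (0.559) and Pigk (0.640). Nearest to H2-Q1 were Vim (0.223), Acot10 (0.251) and Ahcy (0.255), and nearest to H2-Q7 were Rps28 (0.360), Bnip2 (0.606) and Lox (0.622). As gene averages the members were further from each other than from these genes, with H2-Q7 the member nearest to H2-K1 at 1.84 and H2-K1 the member nearest to H2-Q7. The averages of H2-Q1 and H2-D1 join oligonucleotides that stood 3.82 and 2.40 apart at 4 h. The distances of these genes, and the genes found nearest to them, therefore describe no single oligonucleotide. Distances between single oligonucleotides were not computed. With 4 arrays that share 2 RNA pairs this likeness is a description only.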

How the data were processed

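Gene expression in SVEC cells was measured on 4 two-colour arrays, per the labels with amplified RNA, Cy3 and Cy5 labels and Operon V1 long oligonucleotides (the array is named for 4 h). The deposited values are log2 ratios of the dyes. This was settled from the values: 2 raised to their size lies on steps of 0.01 (within 2% of a step) for at least 99.96% of spots. Each column's median was 0. Which scanner, background correction and normalization the authors used is not given in the sources used here. The depth of an array is unknown. The number of arrays limits precision, and so does spot noise: duplicate spots correlated at between 0.26 and 0.62 on the 4 arrays. As deposited, the arrays of a time correlated at -0.042 (24 h) and -0.23 (4 h) over all spots, and the reversed column was turned in sign.

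Of 32448 spots, 24344 had 1 gene symbol in the platform annotation, 98 several and 8006 none; only the first kind was used. Entrez identifiers of 98.9% were found in RefSeq (GRCm38.p6) and 0 symbols changed. Arrays were centred on the median and spots of a gene averaged (Python 3.11.15, pandas 2.3.3, numpy 2.4.6). The members and lists were chosen with earlier results of these data known. Named genes were the members, listed genes past the 2-fold rule at either time, B2m, Tap1, Tap2, Tapbp, Psmb8, Psmb9, Psmb10, Irf1 and Nlrc5 where measured, and the 3 nearest genes of each member; H2-T17, H2-D4, H2-K2, H2-T18, H2-T23, H2-M3, Gapdh, Ppia and the marker genes were named after their values were seen. The remaining list was of epithelial markers, with 0 of 9 past the rule at 24 h and 1 lower at 4 h. Alternatives were other scalings, centrings, thresholds, spot summaries, exact ratios of 1 as not measured, and each array alone; leaving the reversed arrays unturned was chosen after seeing the data.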

Additional observations from a re-analysis of the deposited data

How the results depend on the processing

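With the reversed arrays not turned in sign, chosen after seeing the data, 0 members met the 2-fold rule at 24 h and 0 at 4 h, 0 differed between the times, 204 genes met it at 4 h, and H2-D1 at 4 h reversed (-0.60). All that follows has them turned. At 24 h, 0 members met the 2-fold rule under every alternative run with them turned. At 4 h all 4 did, except that 1 did with centring on the abundant transcripts and 2 when every oligonucleotide of the member had to pass by itself, and the same settings left 2 and 2 members with a difference between the times. Leaving out either array left 4 members at 4 h and 0 at 24 h. The ratio of H2-Q1 at 4 h reversed with centring on the abundant transcripts (-0.24) and for its lower oligonucleotide alone (-0.10); the first follows from subtracting 1 constant per array, and the cause of the second was not tested. Psmb10 at 4 h also turned in sign after quantile normalization (-0.065). Among the markers, that setting took the 4 h call from Col1a1 (0.95) and gave Dcn one at 24 h (1.17). Coro1a lost its 24 h call with centring on the abundant transcripts (0.95). Of the other 60 comparisons of a member's ratio under settings that keep both arrays, 51 moved by no more than the SD of its arrays and 9 by more. With 1 array left out a ratio is the value of the other array, which cannot move past that SD; H2-K1 at 4 h was then 1.89 or 5.27, and H2-Q7 at 24 h changed sign on the reversed array alone (0.14). Over all genes, 1616 met the rule at 4 h, against 9358 with centring on the abundant transcripts and 875 at 3-fold, and between 2383 and 2472 with 1 array left out. At 24 h 276 did, against 557 after quantile normalization, 529 at 1.5-fold, 88 at 3-fold and 668 by the mean alone, and between 1081 and 1320 with 1 array left out. Without the dye reversal the 24 h split was 502 higher and 818 lower, and at 3-fold it was 73 and 15; the causes were not tested. No paired analysis was possible because each time is 1 RNA pair and the labels give no replicate numbers. Without intensities, faint spots could not be told from bright ones.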
